A study of Mus musculus with 8 samples.

Results

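A set of 7 genes that promote growth and hold back maturation is described here in mouse prospermatogonia, the fetal male germ cells that will found the spermatogonial lineage. They are the MYC family genes Mycn, Mycl and Myc, their partner Max, the RNA-binding protein genes Lin28a and Lin28b, and Trim71. These 7 of 55401 rows of the deposited count table were chosen by family and pathway, through the match of their Ensembl identifiers to GENCODE M21, and with results of the comparison between genotypes already known. Their differences between genotypes are therefore given as a description, without a test. Bulk RNA was sequenced at E17.5, late in fetal development, from 4 samples labelled Tet1-/- (KO) and 4 labelled Tet1+/+ (WT), all of batch 1. Each library was made from 5 ng of total RNA depleted of ribosomal RNA, and the labels do not say whether the samples came from separate animals, how the cells were purified, or what the Tet1 allele deletes. The series title places the samples in a study of TET1 functions that do not need its enzyme activity.

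MYC proteins bind DNA as dimers with MAX and raise the transcription of genes for ribosome production, nucleotide synthesis and cell cycle entry, and N-MYC and L-MYC can stand in for c-MYC in many cells. LIN28A and LIN28B bind precursors of the let-7 microRNAs and block their maturation, while mature let-7 lowers the output of Lin28, Trim71, Myc family and other growth genes. TRIM71 is a ubiquitin ligase of the NHL family that also binds and silences mRNAs, it is a classic let-7 target, and in mice both Lin28a and Trim71 are needed for a normal germ cell pool.

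The pathway joins these genes through short sequences, which are shown here because the let-7 matches separate the LIN28 and TRIM71 genes from the MYC genes. Of 12 mature names of the let-7 family in RefSeq GRCm38.p6, 10 share one seed (bases 2 to 8, in capitals), GAGGUAG, and 2 carry GAGGUAU.
let-7a: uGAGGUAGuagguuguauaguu
let-7g: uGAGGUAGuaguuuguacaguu
miR-98: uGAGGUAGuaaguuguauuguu
miR-202-3p: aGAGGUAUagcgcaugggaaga
The DNA complement of the common seed, CTACCTC, was searched in the longest annotated 3' UTR of each gene, on the transcribed strand. It occurred 2 times in Lin28a, 4 times in Lin28b and 4 times in Trim71. No match was present in these UTRs of Mycn, Mycl, Myc or Max. Each site is printed with the 14 bases before it and 1 base after it, with the match in capitals, and is named by the position of its first matching base in the UTR.
Lin28a 909: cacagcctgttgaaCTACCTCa
Lin28a 1547: agatcgccacaaacCTACCTCa
Lin28b 36: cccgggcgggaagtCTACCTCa
Lin28b 2410: atacttgttagtaaCTACCTCt
Lin28b 2582: tttacagcacatggCTACCTCc
Lin28b 3998: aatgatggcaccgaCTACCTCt
Trim71 166: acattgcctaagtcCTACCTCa
Trim71 262: gtgataatttctatCTACCTCa
Trim71 3591: ttagtatggattttCTACCTCa
Trim71 3617: tggcaaaaagttgtCTACCTCa
Across 21037 annotated 3' UTRs, 9.02% held at least 1 match. Long UTRs hold more, so each count was read beside UTRs within 10% of its length. Those sets, of 1195 UTRs for Lin28a, 607 for Lin28b and 383 for Trim71, include the gene itself. In them, 2.01% held at least as many matches as Lin28a, 0.494% at least as many as Lin28b and 0.261% at least as many as Trim71. The genes were chosen as part of the let-7 pathway, so these shares are a description and no test. A match is a run of letters and was not measured as a bound site.

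**Figure D1:**
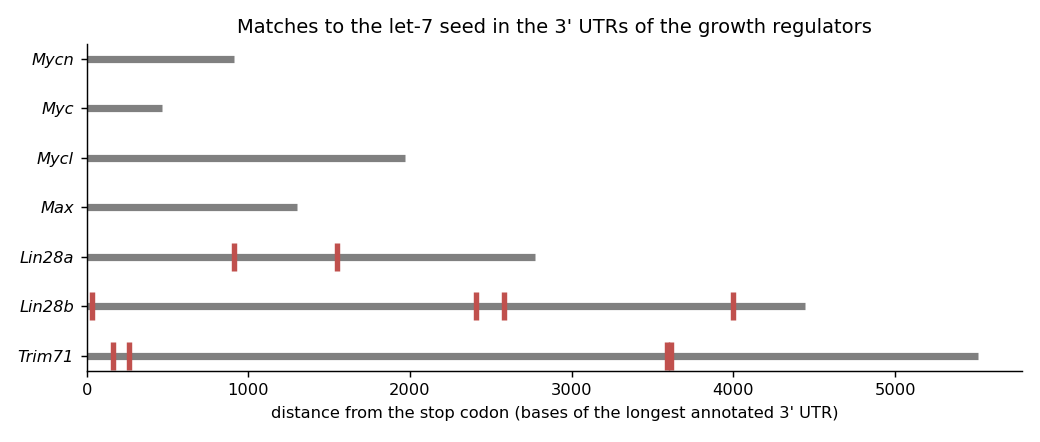
Positions of the letters CTACCTC along the longest annotated 3' UTR of each gene, in bases from the stop codon. Grey lines are the UTRs, drawn to scale, and markers are matches: 2 in Lin28a, 4 in Lin28b, 4 in Trim71 and 0 in the MYC genes and Max.

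LIN28 proteins recognise the let-7 precursor through its terminal loop, where the letters GGAG are the textbook contact. GGAG was present in the loop of 9 of 12 let-7 family hairpins examined and missing from 3 (Mirlet7c-2, Mirlet7b and Mir98). The hairpin of let-7g, on the plus strand at chr9:106178840-106178927 (RefSeq GRCm38.p6), is shown with GGAG in capitals.
Mirlet7g hairpin: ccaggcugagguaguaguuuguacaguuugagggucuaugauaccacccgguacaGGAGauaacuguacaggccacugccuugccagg

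Library totals ran between 13820764 and 19947912 counts in the libraries labelled KO and between 14732396 and 20115250 in those labelled WT. Levels are given as CPM, which is counts scaled to a common library size after TMM normalization (edgeR's trimmed-mean method). The count of Tet1 itself goes against the labels: it averaged 124 ± 33.4 CPM in the libraries labelled KO and 31.9 ± 1.95 CPM in those labelled WT (SD, n = 4 each), a log2 difference of 1.97. This count covers all Tet1 exons, and the deleted part is not given in the sources used here. Of 9 germ cell markers, all were detected, and their sum was 2031 to 2468 CPM in libraries labelled KO and 2383 to 2749 CPM in those labelled WT. In the edgeR test described next, 3 of these markers were higher in libraries labelled KO (log2 differences of Nanos3 2.10, Nanos2 1.66 and Dazl 0.71) and 3 were lower (Mael -1.13, Piwil4 -0.89 and Piwil2 -0.50). One library stood apart. KO 4 had a summed level of 5 Leydig cell markers of 1751 CPM, against 12.5 to 19.0 CPM in the other libraries labelled KO and 13.2 to 28.0 CPM in those labelled WT. WT 2 had the highest Leydig and Sertoli marker sums of its group, at 28.0 and 24.6 CPM. The 5 Sertoli markers summed to 21.9 to 36.4 CPM in libraries labelled KO and 13.8 to 15.6 CPM in the other libraries labelled WT. None of these markers was at 0 in all 8 libraries, although the Leydig marker Insl3 was at 0 in KO 1, KO 2 and WT 4. Of the 5 Sertoli markers, 2 passed the same test, both higher in libraries labelled KO. Of 4 endothelial markers, 1 was higher (Pecam1 1.00) and 3 were lower (Tie1 -1.87, Kdr -1.30 and Cdh5 -0.64), with sums of 48.1 to 59.9 CPM in libraries labelled KO and 53.3 to 62.3 CPM in those labelled WT. Of 5 peritubular and stromal markers, Col1a1 was higher (0.65) and Myh11 lower (-1.56), with sums of 79.9 to 96.8 CPM in libraries labelled KO and 81.1 to 91.5 CPM in those labelled WT. All 4 Leydig markers tested passed as higher in libraries labelled KO, and only KO 4 had high levels of them. Of 4 blood markers, 3 were tested, and Hba-a1 was higher (1.34) and Csf1r lower (-0.83). Blood sums were 3.69 to 6.55 CPM in libraries labelled KO and 3.53 to 6.92 CPM in those labelled WT. The part of these somatic markers in the levels that follow was not tested.

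All 7 genes passed the filter on low counts. Across 24005 genes tested with edgeR's quasi-likelihood test, 53.5% passed an adjusted p of 0.05, 25.3% being higher in KO-labelled libraries and 28.2% being lower there, and 48.4% had groups that did not overlap. Against that background, 5 of the 7 genes were past the same threshold, all higher in the libraries labelled KO, and 6 had groups that did not overlap. Since the genes were chosen with this contrast known, nothing is read from these counts.

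Mycn, which encodes N-MYC, lies on chr12:12936093-12941914 (minus strand, mm10). Its level was 71.2, 72.2, 49.9 and 70.5 CPM in the libraries labelled KO 1 to 4, and 5.89, 6.10, 6.43 and 5.18 CPM in those labelled WT 1 to 4. Every library labelled KO was far above every library labelled WT. The means were 65.9 ± 10.7 CPM in libraries labelled KO and 5.90 ± 0.529 CPM in those labelled WT (SD, n = 4 each), a log2 difference of 3.48 (SE 0.151) or 11.2-fold. Only 0.133% of the genes tested had a larger log2 difference in that direction. In bulk libraries, a change in the number of cells of a type and a change in RNA per cell cannot be told apart, and that holds for every level given here.

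Mycl, which encodes L-MYC, lies on chr4:122995652-123002485 (plus strand). It had 26.2, 22.8, 21.3 and 26.3 CPM in KO 1 to 4, and 6.50, 10.5, 7.01 and 5.95 CPM in WT 1 to 4. The groups did not overlap, and WT 2 was the highest of its group. The means were 24.1 ± 2.50 CPM in libraries labelled KO and 7.50 ± 2.06 CPM in those labelled WT, a log2 difference of 1.69 (SE 0.184) or 3.22-fold.

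Myc, which encodes c-MYC and lies on chr15:61985391-61990374 (plus strand), was the scarce member. It had 12, 8, 18 and 32 counts in KO 1 to 4, and 22, 102, 47 and 29 counts in WT 1 to 4. That is 0.795, 0.454, 1.33 and 2.06 CPM in the libraries labelled KO, against 1.13, 5.92, 2.29 and 1.88 CPM in those labelled WT. The groups overlapped, with 1 library labelled WT (WT 2) well above the rest. The log2 difference was -1.28 (SE 0.532), and -0.61 (SE 0.466) without WT 2, so this library carries much of the difference. WT 2 also had the highest Leydig and Sertoli sums of its group, and their part in its Myc level was not tested. Without KO 4, the library with the Leydig markers, the log2 difference of Myc was -1.69 (SE 0.570).

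Max, the obligate dimer partner of the MYC proteins and of their antagonists, lies on chr12:76937269-76962201 (minus strand). It had 72.4, 76.6, 61.0 and 68.6 CPM in KO 1 to 4, and 49.3, 41.6, 42.1 and 50.2 CPM in WT 1 to 4. The groups did not overlap, but the difference was the smallest of the higher members. The means were 69.7 ± 6.62 CPM in libraries labelled KO and 45.8 ± 4.56 CPM in those labelled WT, a log2 difference of 0.61 (SE 0.113) or 1.52-fold. The predicted gene Gm47218 overlaps Max on the same strand and had 8.16% as many counts, so some reads could belong to either.

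**Figure D2:**
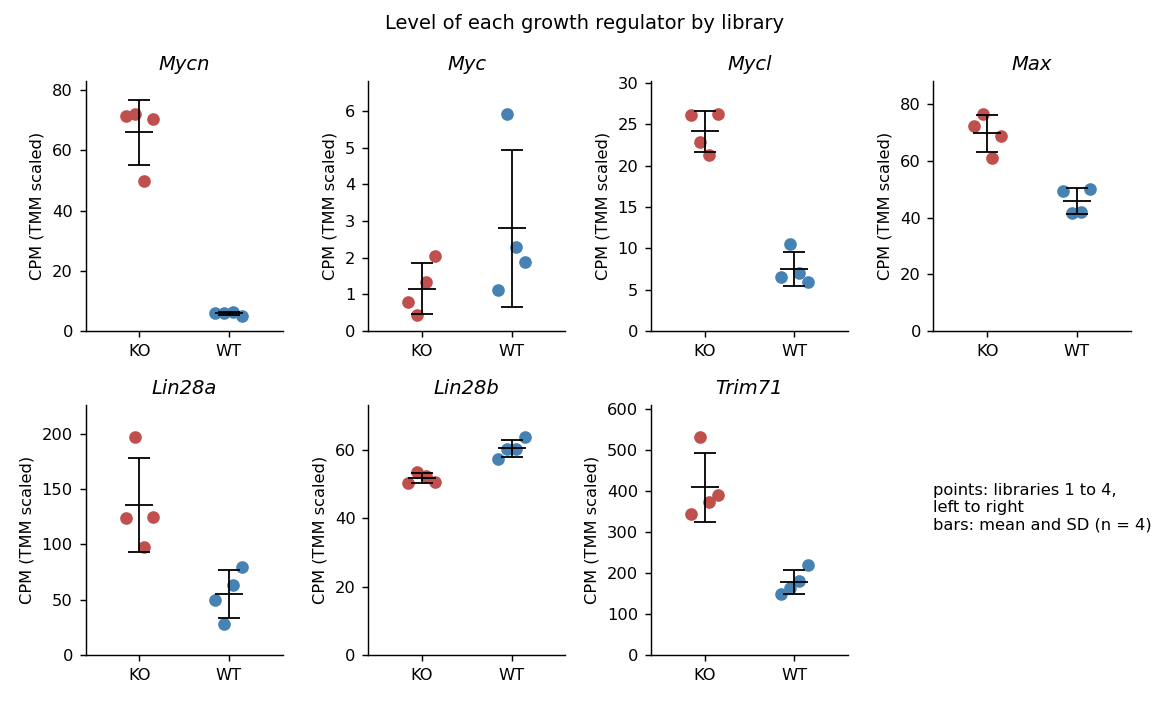
Level of each gene in every library, in CPM on linear axes that start at 0 and differ between panels. Points are libraries labelled KO (left) and WT (right), with the mean and SD of each group. The groups do not overlap except in Myc, and Lin28b is the gene whose libraries labelled KO all sit below those labelled WT.

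Lin28a, on chr4:134003330-134018841 (minus strand), encodes the LIN28 protein best known from primordial germ cells and embryonic stem cells. It had 124, 197, 97.9 and 125 CPM in KO 1 to 4, and 49.6, 27.6, 63.3 and 79.7 CPM in WT 1 to 4. The groups did not overlap, KO 2 being the highest library and WT 2 the lowest. The means were 136 ± 42.5 CPM in libraries labelled KO and 55.1 ± 22.0 CPM in those labelled WT, a log2 difference of 1.30 (SE 0.272) or 2.47-fold. It was 1.09 (SE 0.214) without WT 2 and 1.37 (SE 0.298) without KO 4. Without KO 4 or WT 2, in the same order, Mycn was 3.47 and 3.50, Mycl 1.67 and 1.90, Max 0.64 and 0.57, Trim71 1.25 and 1.17 and Lin28b -0.19 and -0.22.

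Lin28b, on chr10:45376620-45486395 (minus strand), encodes the paralogue with the same RNA-binding domains. It had 50.3, 53.6, 52.3 and 50.6 CPM in KO 1 to 4, and 57.3, 60.3, 60.2 and 63.6 CPM in WT 1 to 4. Every library labelled KO was below every library labelled WT, by a small margin. The means were 51.7 ± 1.53 CPM in libraries labelled KO and 60.4 ± 2.57 CPM in those labelled WT, a coefficient of variation of 2.96% and 4.27%. The log2 difference was -0.22 (SE 0.0939), and -0.17 relative to the median of all genes tested, which was -0.05.

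Trim71, on chr9:114507133-114564369 (minus strand), had 343, 531, 373 and 389 CPM in KO 1 to 4, and 150, 163, 180 and 219 CPM in WT 1 to 4. The groups did not overlap, and KO 2 was again the highest library. The means were 409 ± 83.7 CPM in libraries labelled KO and 178 ± 30.2 CPM in those labelled WT, a log2 difference of 1.20 (SE 0.152) or 2.30-fold. The overlapping opposite-strand gene C130032M10Rik had 0.590% as many counts as Trim71.

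**Figure D3:**
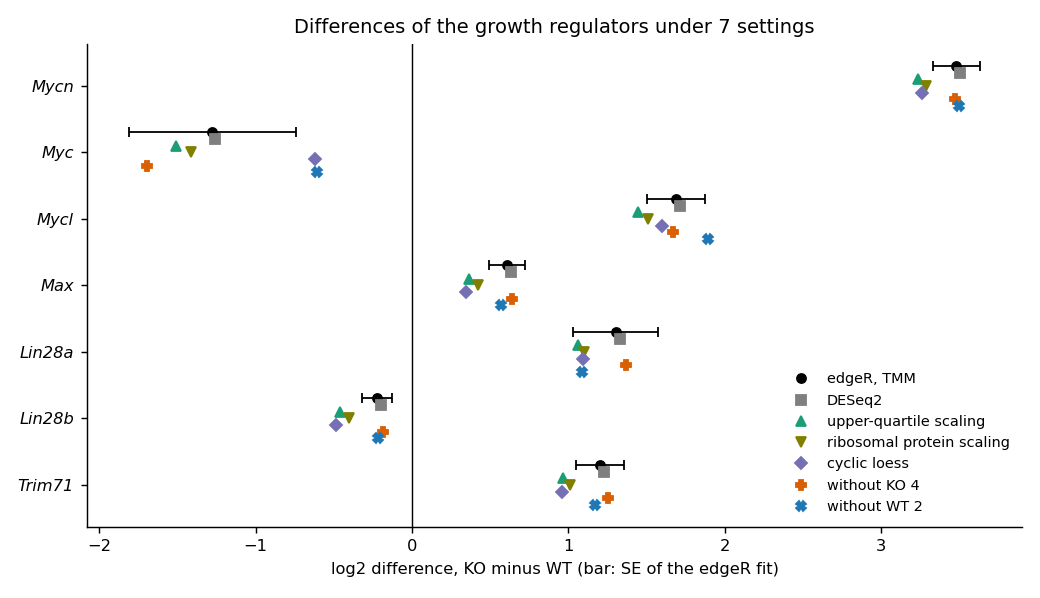
Log2 difference, KO minus WT, of each of the 7 genes under 7 settings (other scalings or tests, and without KO 4 or WT 2), with the standard error of the edgeR fit as whiskers. Mycn stays above 3 in all 7 and Lin28b stays below 0, while Max lies between 0.34 and 0.64 and Myc moves most.

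Levels of different genes were compared per kilobase of exon. In the libraries labelled KO the order was Trim71 at 43.9 ± 8.97, Lin28a at 34.0 ± 10.6, Mycn at 20.0 ± 3.25, Max at 19.4 ± 1.84, Mycl at 5.98 ± 0.620, Lin28b at 5.70 ± 0.169 and Myc at 0.426 ± 0.257 CPM per kb (SD, n = 4). Among neighbours in that order, Trim71 and Lin28a overlapped, as did Mycn and Max, and Mycl and Lin28b. In the libraries labelled WT the order was Trim71 at 19.1 ± 3.23, Lin28a at 13.8 ± 5.52, Max at 12.7 ± 1.27, Lin28b at 6.66 ± 0.284, Mycl at 1.86 ± 0.510, Mycn at 1.79 ± 0.160 and Myc at 1.03 ± 0.786 CPM per kb. There Max and Lin28b stood apart, as did Lin28b and Mycl, and the other neighbours overlapped. Within single libraries, Trim71 was above Lin28a in all 4 labelled KO and all 4 labelled WT. The other overlapping neighbours did not keep their order in every library.

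The make-up of the MYC family differed between the labels, and such ratios within a library do not depend on scaling. Mycn was 76.1, 79.0, 72.5 and 74.6% of the summed level of Mycn, Mycl and Myc per kb in KO 1 to 4, and 46.9, 27.9, 43.1 and 42.1% in WT 1 to 4. The share of Mycl was 22.8 ± 1.97% in libraries labelled KO and 39.8 ± 1.69% in those labelled WT, and that of Myc was 1.65 ± 0.990% in libraries labelled KO and 20.2 ± 9.18% in those labelled WT. The family sum was 26.4 ± 3.70 CPM per kb in libraries labelled KO and 4.68 ± 1.35 CPM per kb in those labelled WT. On a log2 scale the ratio of that sum to Max was 0.441 ± 0.127 in libraries labelled KO and -1.48 ± 0.511 in those labelled WT. The family sum per kb was thus above Max in libraries labelled KO and below it in those labelled WT, on average.

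The make-up of the LIN28 pair also differed between the labels. Lin28b made up 15.2, 10.7, 19.0 and 15.2% of the summed LIN28 level per kb in KO 1 to 4, and 33.8, 49.0, 29.5 and 26.0% in WT 1 to 4. The groups did not overlap, and WT 2 was the only library near an even split. The log2 ratio of Lin28a to Lin28b was 2.53 ± 0.400 in libraries labelled KO and 0.948 ± 0.633 in those labelled WT. The log2 ratio of Trim71 to Lin28a was 0.396 ± 0.225 in libraries labelled KO and 0.556 ± 0.523 in those labelled WT, and these groups overlapped.

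**Figure D4:**
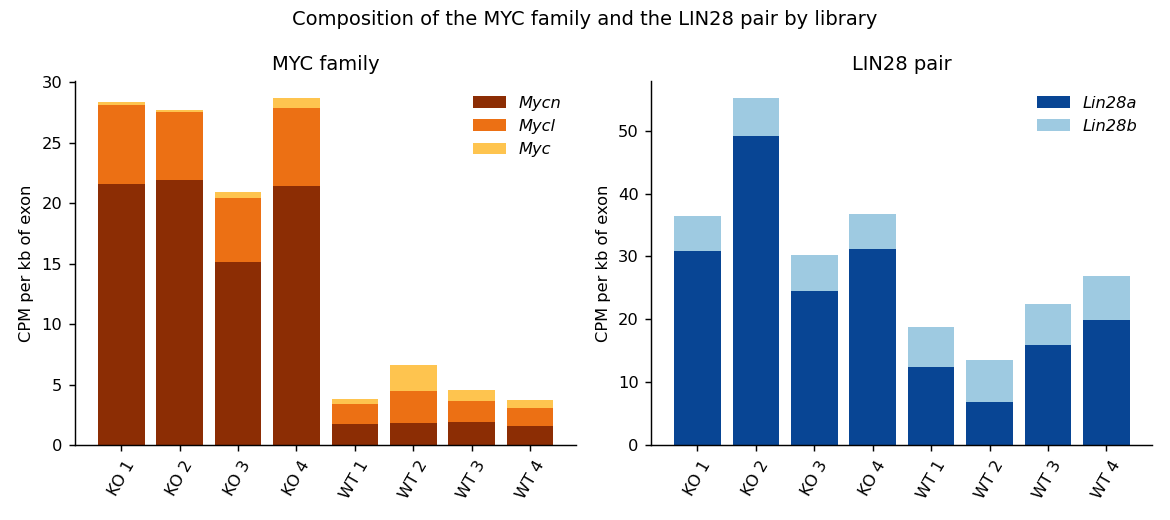
Stacked levels of Mycn, Mycl and Myc (one panel) and of Lin28a and Lin28b (the other) in each library, in CPM per kb of exon, libraries labelled KO left of those labelled WT. Mycn fills 72.5 to 79.0% of the MYC family bars labelled KO and 27.9 to 46.9% of those labelled WT.

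The other genes whose pattern over the 8 libraries was most like each member were listed by Pearson correlation of log2(CPM + 1), as a description in which all points share libraries and the split by label. For Mycn these were Lefty2 (0.999), Dppa5a (0.998) and Mmp15 (0.998). For Mycl they were Rai1 (0.997), Traf6 (0.996) and Tyro3 (0.996), and for Max they were Uxs1 (0.994), Uqcc3 (0.992) and Mterf3 (0.992). Lin28a was most like Prdx1 (0.996), Ddx19b (0.995) and Trip10 (0.993), and Mob3a (0.996) and Trmt6 (0.995) were among those most like Trim71. Lin28b was most like Stk36 (0.978), H2-M3 (0.976) and Trim46 (0.975), and the scarce Myc was most like Pramel3 (0.974), Chrnd (0.967) and Hoxb3 (0.966). Among the members, Mycn and Trim71 correlated at 0.934 over the 8 libraries and at 0.0475 once each label's mean was removed. Lin28a and Trim71 correlated at 0.915 over the 8 libraries and 0.738 with the means removed. Other pairs changed sign. Lin28b and Trim71 correlated at -0.752 over the 8 libraries and at 0.870 with the means removed, the highest such value among the members. Myc and Mycl correlated at -0.382 and 0.768, in the same order.

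The promoter letters were read for the 6 members present in the RefSeq GRCm38.p6 promoter table, which spans 250 bases before and 50 after each start, and both strands were searched. The MYC and MAX dimer binds the E-box CACGTG, found in 7.15% of 32851 promoters. It was present in Max, 3 bases before a start that lies just outside the GENCODE extent of the gene. It was also present in Lin28b, 49 bases before a start that lies inside the GENCODE extent of that gene. Both are on the minus strand and are printed with the E-box in capitals, Max at chr12:76962216-76962281 and Lin28b at chr10:45470215-45470280.
Max promoter: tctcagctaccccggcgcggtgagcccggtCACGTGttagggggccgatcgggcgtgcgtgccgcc
Lin28b promoter: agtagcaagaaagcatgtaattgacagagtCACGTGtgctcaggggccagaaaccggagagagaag
The Mycn window held the E2F-type letters TTTGGCGC 2 times, 183 and 168 bases before the start, at chr12:12941967-12942049 (minus strand). That start also lies inside the GENCODE extent of its gene. This motif was chosen after the Mycn letters were read, and 0.514% of promoters hold it.
Mycn promoter: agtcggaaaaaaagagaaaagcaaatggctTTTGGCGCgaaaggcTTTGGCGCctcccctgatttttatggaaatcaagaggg
CpG dinucleotides numbered 14 in Mycn, 22 in Mycl, 30 in Max, 10 in Lin28a, 8 in Lin28b and 19 in Trim71, against a median of 7 over all promoters.

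Genes around the members were taken from lists drawn up by role with earlier results of these data known, so their counts are a description and not independent evidence of a direction. All tests of them are edgeR quasi-likelihood tests with Benjamini-Hochberg adjusted p over all 24005 genes. Those p-values measure the spread between these libraries, which may be technical. Well expressed genes leaned upward in the libraries labelled KO: among the 8364 genes averaging at least 4 on the log2 CPM scale, 63.7% passed, 72.2% of those calls were higher and the median log2 difference was 0.26. Calls of higher thus covered 46.0% of these 8364 genes, the share to set beside each list's count of genes that rose. Of 15641 genes below that level, 48.1% passed, 14.3% were called higher and the median was -0.34. Most list members are well expressed, so their counts are to be read beside these values.

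The partners and antagonists of MYC and MAX did not move one way. Of 10 tested, 4 rose and 3 fell, with a median log2 difference of 0.13. Mnt, a MAX-binding repressor that opposes MYC, rose to 41.3 ± 5.44 CPM in libraries labelled KO, against 17.9 ± 3.32 CPM in those labelled WT (log2 difference 1.21, edgeR adjusted p = 3.25e-05). Mxi1, another MAX-binding antagonist, and Mlx, the partner of the MLX branch of the network, rose by 0.56 and 0.69 on the log2 scale. Mlxipl, the glucose-responsive partner of MLX, fell to 11.4 ± 2.36 CPM in libraries labelled KO, against 25.9 ± 2.24 CPM in those labelled WT (log2 difference -1.18, edgeR adjusted p = 5.35e-05). Zbtb17, which encodes the factor MIZ1 through which MYC represses genes, had a log2 difference of -0.45. Mxd1, an antagonist, had one of -0.39 (edgeR adjusted p = 0.0278), and it no longer passed without KO 1, KO 2, WT 1 or WT 2 (log2 differences of -0.39 to -0.27, edgeR adjusted p 0.0584 to 0.112). Nor did it pass with no filter on low counts (-0.34, edgeR adjusted p = 0.0885) or with the replicate block (-0.38, edgeR adjusted p = 0.0707). Of 12 listed genes, Bmyc and Mycs were too scarce to test.

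Cofactors and turnover factors of MYC rose in 8 of 13 cases and fell in 1, with a median of 0.54. Ruvbl2, an ATPase of MYC-bound complexes, rose by 0.86, and Trrap and Ep400, the scaffold and the motor of acetyltransferase complexes recruited by MYC, rose by 0.92 and 0.73 on the log2 scale. Huwe1, a ubiquitin ligase that acts on MYC proteins, rose by 0.84, and Aurka, the kinase that stabilises N-MYC, rose by 0.62. Usp28, a deubiquitinase that stabilises MYC, was the 1 that fell, at 481 ± 61.6 CPM in libraries labelled KO and 695 ± 43.7 CPM in those labelled WT (log2 difference -0.53, edgeR adjusted p = 0.00135). Under upper-quartile scaling, ribosomal protein scaling or cyclic loess the split was 6 higher and 2 lower.

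Classic MYC target genes rose in 19 of 31 cases and fell in 1, with a median of 0.71. Dkc1 and Nop58, which modify ribosomal RNA, rose by 1.87 and 1.94 on the log2 scale. Nop58 had 142 ± 22.4 CPM in libraries labelled KO and 36.9 ± 6.56 CPM in those labelled WT (edgeR adjusted p = 1.18e-06). The chaperonin gene Hspd1, the transferrin receptor gene Tfrc and the nucleolar gene Npm1 rose by 1.81, 1.37 and 1.20. Ldha, which encodes lactate dehydrogenase A, was the 1 that fell, at 36.7 ± 1.82 CPM in libraries labelled KO and 67.2 ± 17.0 CPM in those labelled WT (log2 difference -0.87, edgeR adjusted p = 0.000362). The split was 17 higher and 4 lower under upper-quartile scaling and 18 higher and 4 lower under cyclic loess.

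MicroRNA maturation genes rose in 14 of 17 cases and fell in 1, with a median of 0.58. Dgcr8, the RNA-binding part of the Microprocessor, rose to 81.0 ± 5.57 CPM in libraries labelled KO, against 40.1 ± 4.75 CPM in those labelled WT (log2 difference 1.01, edgeR adjusted p = 1.44e-05). Ddx17 and Khsrp, helpers of that step, rose by 1.31 and 0.80, Hnrnpa1, which binds let-7 precursors, rose by 1.24, and Ago2, the slicing Argonaute, rose by 1.08. Ago4 was the 1 that fell (log2 difference -0.62, edgeR adjusted p = 0.00354). LIN28 acts with enzymes that add uridines to let-7 precursors, and these were named after their values were seen. Tut4 rose by 0.41, a call not kept under upper-quartile or ribosomal protein scaling or cyclic loess, and Dis3l2, the exonuclease that removes the tailed precursor, rose by 0.92, whereas Tut7 had 98.6 ± 6.77 CPM in libraries labelled KO and 98.3 ± 3.95 CPM in those labelled WT. The split of this list was 10 higher and 2 lower under upper-quartile scaling (median 0.34), 10 higher and 1 lower under ribosomal protein scaling, and 11 higher and 2 lower under cyclic loess (median 0.32).

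Genes known as let-7 targets rose in 18 of 23 cases and fell in 1, with a median of 0.54. The match CTACCTC printed for Lin28a, Lin28b and Trim71 was present in the longest 3' UTR of 17 of these 23 genes. Over all annotated 3' UTRs the share was 9.02%, but UTRs of like length were not compared here. The genes were listed as let-7 targets, so this count is a description and no test. Cdc25a, a cell cycle phosphatase, rose to 85.3 ± 7.0 CPM in libraries labelled KO, against 29.0 ± 2.29 CPM in those labelled WT (log2 difference 1.56, edgeR adjusted p = 4.36e-07). The chromatin remodeller gene Smarcad1 rose by 1.39, the RNA-binding protein gene Igf2bp3 by 1.21 and the ubiquitin-conjugating enzyme gene Cdc34 by 1.13. Hmga2, a chromatin protein gene with several let-7 sites, was the 1 that fell (log2 difference -0.68, edgeR adjusted p = 0.0145), and its adjusted p was 0.0517 without KO 4. The split was 13 higher and 2 lower under upper-quartile scaling, 12 higher and 1 lower under ribosomal protein scaling, and 11 higher and 2 lower under cyclic loess.

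The let-7 genes themselves had few counts, and mature microRNAs were not analysed here. Of 13 hairpin genes, 8 had no count in any library. Summed over the other 5, 18, 18, 7 and 13 counts fell in KO 1 to 4, and 18, 15, 15 and 10 in WT 1 to 4. The summed level was 0.891 ± 0.289 CPM in libraries labelled KO and 0.793 ± 0.126 CPM in those labelled WT, and the difference of 0.0988 CPM did not pass a two-sided exact permutation test over the 70 splits (p = 0.571, the smallest possible being 0.0286). Most of the hairpin counts fell inside the host genes Wdr82 and Huwe1. Mirlet7g, inside Wdr82, had 17 counts in libraries labelled KO and 12 in those labelled WT. Inside Huwe1, Mirlet7f-2 had 14 and 11 and Mir98 had 23 and 23, in the same order. Reads of a host and of its hairpin cannot be told apart there, so the permutation test does not decide whether let-7 differed. Outside both hosts, Mirlet7a-2 had 1 count in libraries labelled KO and 6 in those labelled WT, and Mirlet7c-1 also had 1 and 6. These were lower in libraries labelled KO, on very few counts, and were not tested on their own. Wdr82 and Huwe1 were the 2 tested genes of this list and both rose, by 1.26 and 0.84 on the log2 scale.

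A mixed list of TRIM71 targets and NHL-family relatives rose in 4 of 7 cases and fell in 1, with a median of 0.40. The listed target E2f7 (log2 difference -0.08, edgeR adjusted p = 0.539) and the relative Trim3 (0.22, edgeR adjusted p = 0.129) did not pass. The count is therefore not one of TRIM71 targets alone. Cdkn1a, the p21 cell cycle inhibitor whose mRNA TRIM71 silences in mouse embryonic stem cells, rose to 16.0 ± 2.72 CPM in libraries labelled KO, against 2.03 ± 0.317 CPM in those labelled WT (log2 difference 2.96, edgeR adjusted p = 3.94e-07). Shcbp1 and the NHL ligase gene Trim32 rose by 1.19 and 0.64, and Mbnl1, a splicing regulator gene, rose by 0.40 with groups that overlapped and no longer passed without KO 2, KO 4, WT 2 or WT 3 (edgeR adjusted p 0.0659 to 0.120). The log2 difference of Mbnl1 was 0.15 under upper-quartile scaling, 0.22 under ribosomal protein scaling and 0.12 under cyclic loess, and it passed under none of these, nor with the replicate block or a filter of 1 CPM in 4 libraries. Trim2, another NHL ligase gene, fell to 5.48 ± 1.41 CPM in libraries labelled KO, against 14.9 ± 2.24 CPM in those labelled WT (log2 difference -1.45, edgeR adjusted p = 8.64e-05). The split was 3 higher and 2 lower under upper-quartile scaling and cyclic loess.

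**Figure D5:**
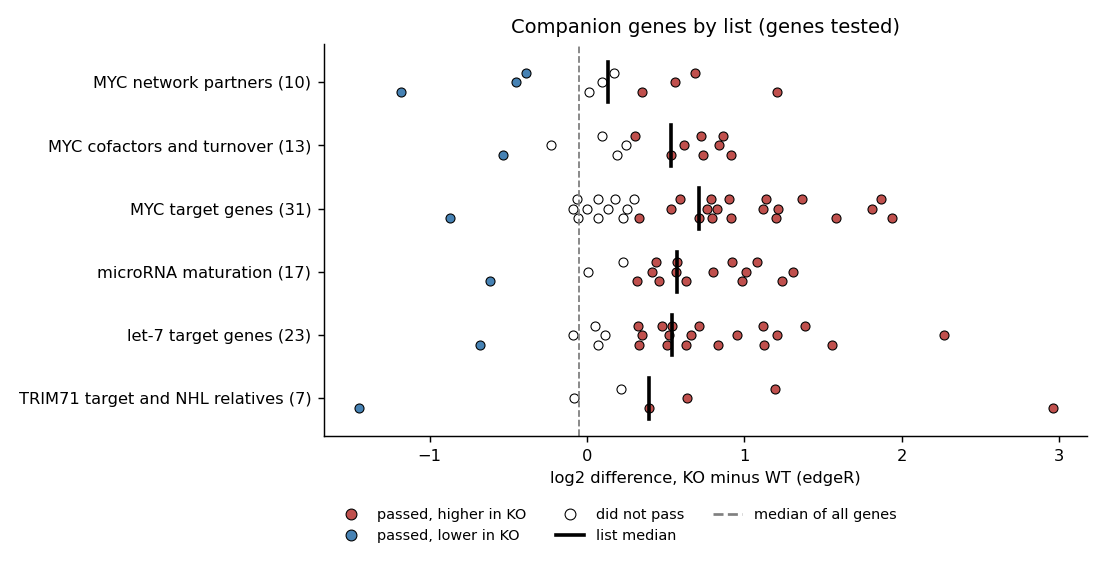
Log2 difference, KO minus WT, of every tested gene of the lists around the MYC, LIN28 and TRIM71 genes, one row per list, coloured by whether the gene passed the edgeR test. Most lists lie right of 0 (19 of 31 MYC targets rose), while the partners of MYC and MAX spread over both sides (4 rose and 3 fell). Among all 8364 genes averaging at least 4 on the log2 CPM scale, 46.0% were called higher and the median was 0.26.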

How the data were processed

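Bulk RNA was sequenced from 4 samples labelled Tet1-/- and 4 labelled Tet1+/+. The authors deposited 1 table of raw counts, with genes by Ensembl identifier. Per the submitters' processing notes, the tools used included featureCounts 1.5.0, STAR and Trim Galore, DESeq2 and edgeR, on mm10, with no role given. Strand setting, the handling of molecular identifiers and the annotation release were not given. Identifiers were matched to GENCODE M21 (55141 matched, 260 did not). Counts were fitted with edgeR 4.0.16 in R 4.3.3 (filterByExpr, TMM scaling, quasi-likelihood test, genotype only), which left 24005 genes, and p-values were adjusted over all of them at a threshold of 0.05. Levels between genes are CPM per kb of the union of exons. The script was tested on simulated counts with 200 changed genes. The members and the gene lists were chosen with earlier results of these data known. Named are all 7 members, the 5 genes of lowest p in each list, those passing in the rarer direction of a list (if at most 5), and the 3 genes most correlated with each member. A few genes that this rule picks are not reported here. Alternatives were DESeq2 1.42.0, RLE, upper-quartile and ribosomal protein (79 genes) scaling, cyclic loess with limma 3.58.1, other filters, a stricter threshold of 0.01, a replicate block and leaving out each library.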

Additional observations from a re-analysis of the deposited data

Results flagged for a closer look

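Mycn in KO 3 was 49.9 CPM, against 70.5 to 72.2 CPM in the other libraries labelled KO. Its gap to the nearest of these was 0.925 of the range of the group, above Dixon's 95% critical value for 4 samples. It remained far above the libraries labelled WT, which had 5.18 to 6.43 CPM. This was the 1 flag among 14 groups tested (7 genes in each label), and chance flags about 1 group in 20.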

How the results depend on the processing

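All 7 members kept the direction of their log2 difference under all alternatives run. Size moved with scaling, which also moved the median of all genes by -0.24 (upper quartile), -0.18 (ribosomal proteins) and 0.07 (cyclic loess). Under upper-quartile scaling Mycn was 3.24, Max 0.37 and Lin28b -0.46, and under ribosomal protein scaling Max was 0.42 and Lin28b -0.40. Under cyclic loess Mycn was 3.26, Myc -0.62, Max 0.34 and Lin28b -0.48. Relative to the all-gene median, Lin28b was -0.17 under upper-quartile, ribosomal protein and TMM scaling, -0.50 under cyclic loess and 0.05 with no filter on low counts, so its sign relative to other genes depends on the filter. Leaving out 1 library at a time, Myc lay between -1.69 and -0.61. Calls over all genes split into 6083 higher and 6770 lower under TMM, 4033 higher and 8882 lower with upper quartile, and 4002 higher and 7604 lower with ribosomal proteins. With each label's mean removed, same-numbered libraries correlated at 0.148, -0.213, -0.115 and 0.015, and only KO 1 correlated best with its own number. Such correlations cannot settle whether any samples were paired by origin. The library names of KO 1 and WT 1, the pair at 0.148, share a first number whose meaning the labels do not give. With the replicate block, 11518 genes passed, against 12853 without it, and 5 members in both. All 7 members passed under upper-quartile and ribosomal protein scaling, and 6 under DESeq2 and under cyclic loess. Of 16 alternatives at the 0.05 threshold, Myc passed in 7 and Lin28b in 4, and each other member passed in all 16. Myc rests on 70 counts in libraries labelled KO and 200 in those labelled WT, so its depth limits what can be said of it.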

Other observations

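Both MYC relatives too scarce to test were counted. Bmyc had 37 counts in the libraries labelled KO and 20 in those labelled WT. Mycs, an X-linked intronless MYC relative of rodents, had 0, 0, 2 and 0 counts in KO 1 to 4, and 4, 10, 6 and 6 counts in WT 1 to 4, so its groups did not overlap.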
